A study of Homo sapiens with 6 samples.

Results

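Extracellular proteases cut proteins of the matrix and the cell surface, and their inhibitors set how long and where they act. The genes described here are 58 of the 7681 genes in the deposited tables. They were taken by symbol: matrix metalloproteinases (MMP), ADAM and ADAMTS metalloproteases, serpins, TIMPs, kallikreins (KLK), the TMPRSS and PRSS serine proteases, and a few single genes such as PLAU, PLAUR, ST14, SLPI and FURIN. RNA was sequenced from HCT116, a human colorectal carcinoma cell line, in 3 wild-type control cultures and in 3 cultures labelled Rab27B KO. In the latter RAB27B, a small GTPase of secretory vesicles, is stated to be deleted by CRISPR/Cas9. The submitters call the 3 samples of a genotype biological replicates. All 6 cultures were untreated and grown for 48 hours. The labels do not say whether the edited line is 1 clone.

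The data were 2 tables of the authors' own comparison, which give each gene's log2 fold change and its q-value (a p-value adjusted for many tests). No values per sample were analysed here, so depth and the spread between replicates are unknown and no error can be put on a fold change. Every listed gene has a q-value below 0.05, so "higher" and "lower" mean a call by the authors' test. A gene in neither table either missed that threshold or was not measured, and these cannot be told apart. The RNA of the targeted gene goes against its label: the authors' deposited table gives RAB27B as 36.7-fold higher in the knockout-labelled samples. Directions are therefore those of the libraries as labelled. Of 12 markers of colorectal epithelium, 8 were listed, 4 higher and 4 lower. In the authors' deposited table the lower ones had log2 fold changes of -1.15 for EPCAM, -1.15 for CDH1, -2.97 for HNF4A and -0.75 for CDX2. The higher ones stood at 2.08 for KRT20, 0.61 for KRT8, 0.52 for KRT19 and 0.47 for KRT18 on the log2 scale in the authors' deposited table. Of 10 leukocyte markers, 2 were listed in the authors' deposited table, CD68 at 1.81 and LYZ at 1.34 on the log2 scale. Of 12 fibroblast and endothelial markers, 2 were listed in the authors' deposited table, COL3A1 at 1.77 and COL1A1 at -0.40 on the log2 scale. The other leukocyte, fibroblast and endothelial markers, among them PTPRC, DCN and PECAM1, were in neither table. The part of other cells or of a changed cell state in the protease results was not tested.

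The urokinase system is the best-known cell-surface protease system of carcinoma cells. Urokinase (PLAU), held by its receptor (PLAUR), turns plasminogen into plasmin, which degrades fibrin and activates other proteases, and plasminogen activator inhibitors of the serpin family stop it. MMPs and ADAMTS proteases cut collagens and other matrix proteins and are held by TIMPs. ADAMs include sheddases that release growth factors from the cell surface, while matriptase (ST14) and its relatives work at the epithelial surface together with the Kunitz inhibitor SPINT1.

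The listed protease and inhibitor genes moved in both directions, between families and also within many of them. Of the 58 genes, 35 were higher and 23 lower in the samples labelled Rab27B KO, 60.3% higher, where 50.7% of all listed genes were higher and 49.3% lower. At a q-value below 0.01, 54 of the 58 remained, 33 higher and 21 lower, and 84.9% of all listed genes did so. The PLAU, PLAT and PLAUR genes and the listed clade B serpins were higher without exception, whereas the listed type II transmembrane serine proteases were all lower. RefSeq annotates 172 protein-coding genes that the same names would take. The listed 58 are 33.7% of these, against 37.9% of all 20056 annotated protein-coding genes, so these families were not listed more often than other genes. The sizes of the changes differed more from the rest of the tables. Only genes with a q-value below 0.05 enter these sizes, and scarce or variable transcripts pass it mainly with large changes. The part of abundance in this difference was not tested. An absolute log2 fold change of 1 or more was listed for 23 of the 58 genes (39.7%), against 12.6% of all listed genes. Changes of this size were higher for 15 of the 58 genes, against 469 of all 7681 listed genes (6.11%). They were lower for 8 of the 58, against 499 of the 7681 (6.5%). The median absolute log2 fold change was 0.78 for these genes and 0.41 for all listed genes. A change of at least 2 was reached by 10 of the 58 genes, 7 of them higher and 3 lower, against 336 of all 7681 listed genes (4.37%).

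**Figure D1:**
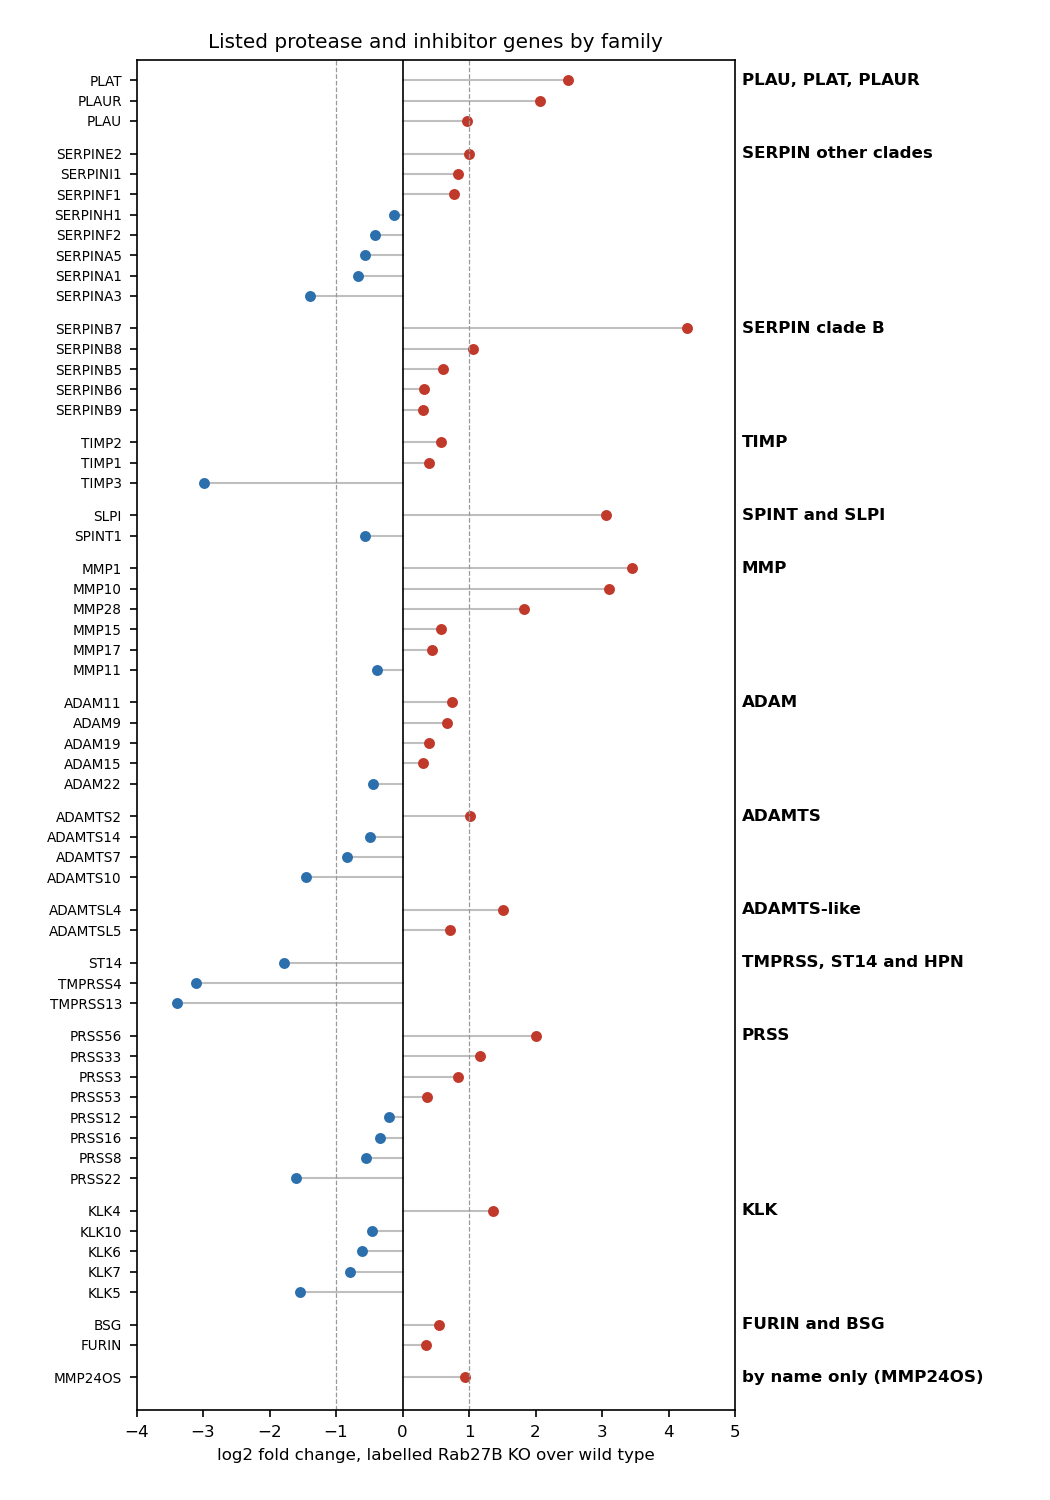
Log2 fold change (samples labelled Rab27B KO relative to wild type) for 57 of the 58 listed protease and inhibitor genes, grouped by family, from the authors' deposited table. Red points are higher and blue points lower, dashed lines mark a log2 change of 1 in each direction, and no error is available; values run from -3.39 for TMPRSS13 to 4.28 for SERPINB7.

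**Figure D2:**
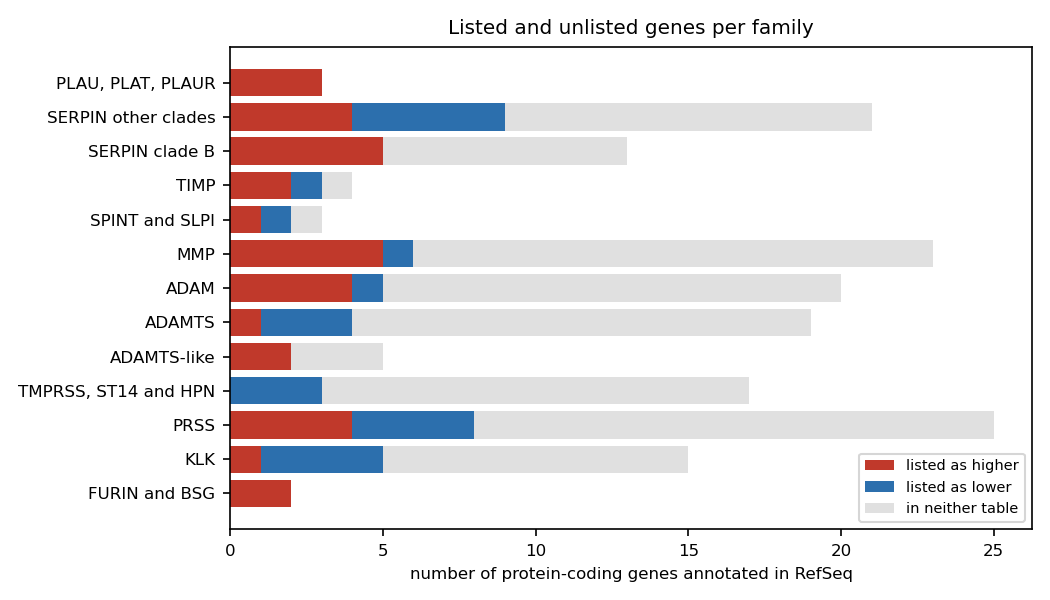
Number of protein-coding genes annotated in RefSeq for each family, split into those listed as higher (red), listed as lower (blue) and in neither table (grey). All 3 genes of the urokinase group are listed as higher, while 14 of 17 TMPRSS, ST14 and HPN genes are in neither table and the other 3 are lower.

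By role, 34 of the 58 genes were proteases by family name, 18 higher (52.9%) and 16 lower. Another 19 were inhibitors by family name, 12 higher (63.2%) and 7 lower. Of all listed genes 50.7% were higher. Without the mainly intracellular clade B serpins and the collagen chaperone SERPINH1, 7 inhibitors were higher and 6 lower. The names overstate the roles in places: ADAM11 and ADAM22 lack protease activity, and SERPINB5, SERPINF1 and SERPINH1 are serpins not known to inhibit proteases. The remaining 5 genes, PLAUR, BSG, ADAMTSL4, ADAMTSL5 and MMP24OS, were all higher. MMP24OS is taken in by name only: it encodes no metalloproteinase and overlaps MMP24, so its reads may be shared, and it was 1.93-fold higher at q = 3.74e-77 in the authors' deposited table.

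The genes for both plasminogen activators and the urokinase receptor were higher. In the authors' deposited table PLAUR, the urokinase receptor (gene ID 5329; chromosome 19, 43646095 to 43670169 in GRCh38.p14), was 4.20-fold higher, and its q-value is listed as 0, as for 17 genes in all. PLAT, the tissue plasminogen activator, was 5.60-fold higher at q = 5.00e-231 in the authors' deposited table, and ranked 22 by q-value among the 3898 higher genes. PLAU itself was 1.95-fold higher at q = 1.54e-50 in the authors' deposited table. The receptor changed more than its ligand, by 1.10 on the log2 scale. No error can be given for that difference.

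Serpins that inhibit the activators or plasmin did not share 1 direction. SERPINE2, protease nexin-1, which inhibits thrombin and urokinase, was 2.01-fold higher at q = 1.05e-148 in the authors' deposited table. SERPINI1, neuroserpin, an inhibitor of tissue plasminogen activator, was 1.78-fold higher at q = 7.34e-06 in the authors' deposited table. The log2 change of PLAU minus that of SERPINE2 was -0.04, and that of PLAT minus SERPINE2 was 1.48. SERPINF2, alpha-2-antiplasmin, which inhibits plasmin itself, was 1.33-fold lower at q = 0.00388 in the authors' deposited table. SERPINA5, protein C inhibitor, which also inhibits urokinase, was 1.49-fold lower at q = 0.00111 in the authors' deposited table. SERPINB2, another inhibitor of urokinase, was in neither table.

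**Figure D3:**
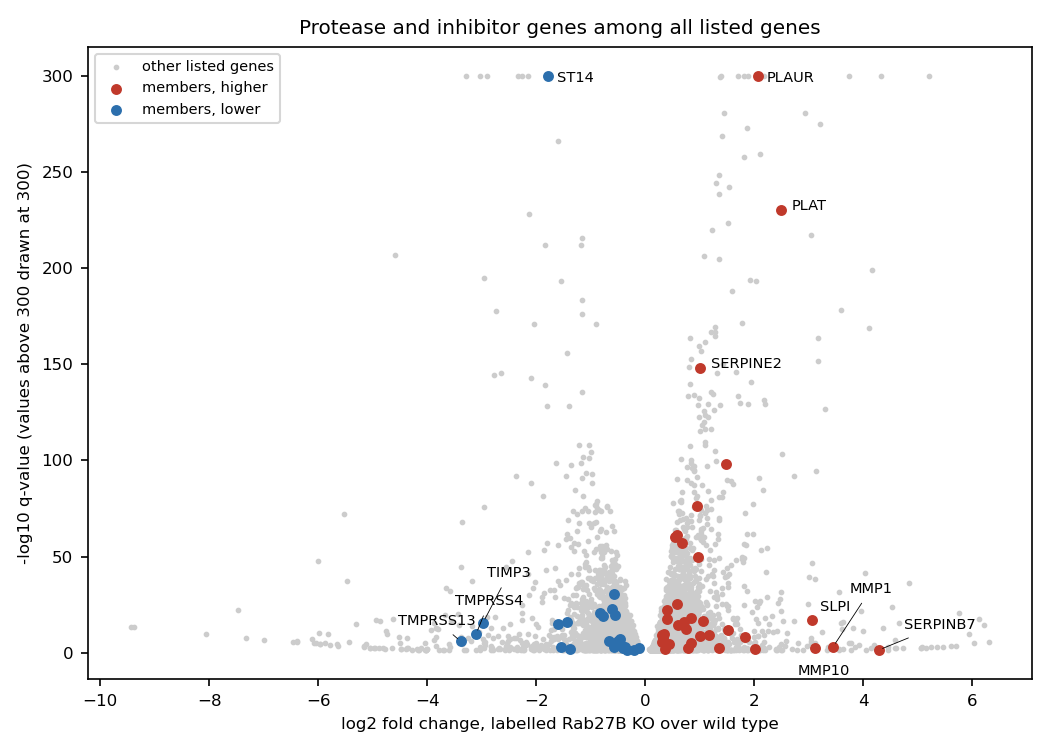
Log2 fold change (x axis) against -log10 of the q-value (y axis) for all 7681 listed genes in the authors' deposited table, with the protease and inhibitor genes in red (higher) and blue (lower); q-values listed as 0 are drawn at the top edge of the values, 300. PLAUR and ST14 stand at that edge on opposite sides, while MMP1, MMP10 and SERPINB7 combine large changes with q-values of 0.000633, 0.00448 and 0.0329.

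Promoter sequences from RefSeq (GRCh38.p14) were found for 42 of the 58 genes and searched for TGANTCA, the core letters bound by AP-1 dimers. The motif reads the same on both strands. In the window from 250 bases before to 50 bases after a start site it was found for 7 of these 42 genes (16.7%), against 9.37% of all 27305 genes with a promoter entry. The share was 8.04% for protein-coding genes and 7.38% for all listed genes with an entry. Among the higher genes it was 6 of 25, against 7.84% of all listed higher genes, and among the lower genes 1 of 17, against 6.9% of all listed lower genes. The 6 higher genes were PLAUR, MMP10, PRSS3, SERPINB5, SERPINB7 and SERPINB8, and the serpins among them lie in a single gene cluster on chromosome 18. These counts are small and a match is not a binding site. MMP1, SLPI, PLAT, ST14, TMPRSS4 and TMPRSS13 had no entry. The PLAUR promoter is shown because PLAUR had the smallest q-value of the higher genes. Its 251 bases end at the start site, the motif is in capitals, and the first base of the motif lies 186 bases upstream.
PLAUR, chr19:43670169-43670419, - strand: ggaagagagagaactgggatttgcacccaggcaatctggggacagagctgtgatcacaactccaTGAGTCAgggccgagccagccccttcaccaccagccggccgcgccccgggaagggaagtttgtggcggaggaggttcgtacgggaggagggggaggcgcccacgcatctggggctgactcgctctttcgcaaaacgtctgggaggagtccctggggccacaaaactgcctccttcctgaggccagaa

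The listed MMPs were mostly higher, but few were listed. Of 23 annotated MMP genes 6 were listed (26.1%, against 37.9% of all annotated protein-coding genes). Of these 5 were higher and 1 lower, where 50.7% of all listed genes were higher. MMP1, interstitial collagenase (gene ID 4312; chromosome 11, 102789919 to 102798160), was 10.9-fold higher at q = 0.000633 in the authors' deposited table. Its neighbour MMP10, stromelysin-2, was 8.62-fold higher at q = 0.00448 in the authors' deposited table. These are the largest MMP changes but not the best supported: of all listed genes with an absolute log2 change of 1 or more, only 25.3% had a larger q-value than MMP1 and 17.1% a larger one than MMP10. MMP28, epilysin, an MMP of epithelia, was 3.54-fold higher at q = 3.57e-09 in the authors' deposited table. The membrane-type enzymes changed less. MMP15 was 1.50-fold higher at q = 7.15e-26 in the authors' deposited table. MMP17, which is held by a lipid anchor, was 1.36-fold higher at q = 3.66e-05 in the authors' deposited table. MMP11, stromelysin-3, was the lower member, at 1.30-fold at q = 0.000707 in the authors' deposited table. The gelatinase genes MMP2 and MMP9, the epithelial matrilysin gene MMP7 and MMP14 were in neither table.

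The MMP10 promoter is shown as that of a strongly changed gene with the motif near the start. The motif, in capitals, begins 67 bases upstream of the start site, where the 251 bases end.
MMP10, chr11:102780628-102780878, - strand: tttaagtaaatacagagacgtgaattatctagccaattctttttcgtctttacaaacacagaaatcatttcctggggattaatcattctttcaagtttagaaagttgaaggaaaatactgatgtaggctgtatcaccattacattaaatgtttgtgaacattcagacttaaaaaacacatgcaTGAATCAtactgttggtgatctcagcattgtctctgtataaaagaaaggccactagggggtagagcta

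TIMPs and other MMP regulators did not share 1 direction. TIMP3, the matrix-bound TIMP, was 7.88-fold lower at q = 2.12e-16 in the authors' deposited table. TIMP2 was 1.50-fold higher at q = 4.09e-62 in the authors' deposited table. TIMP1 was 1.32-fold higher at q = 2.19e-18 in the authors' deposited table. The fall of TIMP3 was thus much larger than the rises of the other listed TIMPs, although its q-value was the largest of the 3, and TIMP4 was in neither table. TIMP3 (gene ID 7078; chromosome 22, 32801705 to 32863041) lies inside SYN3, a gene listed as higher. BSG, or EMMPRIN, a surface glycoprotein known as an inducer of MMPs, was 1.46-fold higher at q = 7.75e-61 in the authors' deposited table. FURIN, which cuts the propeptides of membrane-type MMPs and ADAMs, was 1.28-fold higher at q = 1.19e-10 in the authors' deposited table. FURIN lies on chromosome 15, where 19.8% of listed genes were higher. RECK, a membrane-anchored inhibitor of MMPs, was 1.70-fold higher at q = 9.64e-07 in the authors' deposited table.

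Among ADAM genes, 5 of 20 were listed (25%, against 37.9% of all annotated protein-coding genes). Of these 4 were higher and 1 lower, and none reached a log2 change of 1. ADAM9, an active sheddase, was 1.59-fold higher at q = 6.25e-58 in the authors' deposited table. It overlaps TM2D2, which was also listed as higher. ADAM19 was 1.32-fold higher at q = 3.83e-23 and ADAM15 1.24-fold higher at q = 4.04e-10 in the authors' deposited table. The genes for the inactive ADAM11 and ADAM22, known mainly from the nervous system, had opposite signs in the authors' deposited table, at 0.74 and -0.45 on the log2 scale. ADAM22 lies on chromosome 7, where 33% of listed genes were higher. The main sheddases of growth factors and Notch, ADAM10 and ADAM17, were in neither table.

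Of 19 ADAMTS genes, 4 were listed (21.1%, against 37.9% of all annotated protein-coding genes), 1 higher and 3 lower. ADAMTS2 and ADAMTS14 both remove the amino-terminal propeptide of fibrillar procollagens. ADAMTS2 was 2.02-fold higher at q = 1.45e-09 in the authors' deposited table. ADAMTS14 was 1.41-fold lower at q = 9.22e-07 in the authors' deposited table, so that these related enzymes had opposite signs. ADAMTS10, a protease of fibrillin microfibrils, was 2.72-fold lower at q = 1.28e-16 in the authors' deposited table. ADAMTS7, which cuts cartilage oligomeric matrix protein, was 1.79-fold lower at q = 2.02e-21 in the authors' deposited table and lies on chromosome 15. The ADAMTS-like proteins keep the matrix-binding parts but no protease domain. ADAMTSL4 was 2.85-fold higher at q = 9.31e-13 and ADAMTSL5 1.64-fold higher at q = 1.33e-16 in the authors' deposited table.

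The listed type II transmembrane serine proteases, 3 of 17 annotated, were lower: ST14, TMPRSS4 and TMPRSS13. The share listed was 17.6%, against 37.9% of all annotated protein-coding genes. In the authors' deposited table ST14, matriptase (gene ID 6768; chromosome 11, 130159782 to 130210362), was 3.44-fold lower, again with a q-value listed as 0. TMPRSS13 was 10.5-fold lower at q = 1.19e-06 in the authors' deposited table. TMPRSS4 was 8.60-fold lower at q = 1.54e-10 in the authors' deposited table. Hepsin (HPN) and TMPRSS2 were in neither table. Of the PRSS family, PRSS8 and PRSS22 are described here for their place at epithelial surfaces, a choice made after their values were seen. PRSS8, prostasin, a membrane-anchored partner of matriptase, was 1.46-fold lower at q = 3.21e-20 in the authors' deposited table. PRSS22, an epithelial tryptase, was 3.03-fold lower at q = 5.82e-16 in the authors' deposited table. SPINT1, or HAI-1, the main inhibitor of matriptase and prostasin, was 1.48-fold lower at q = 3.41e-31 in the authors' deposited table. ST14, PRSS8 and SPINT1 were thus all lower. The log2 change of ST14 minus that of SPINT1 was -1.21, while that of PRSS8 minus SPINT1 was 0.02. SPINT1 lies on chromosome 15, where 19.8% of listed genes were higher, and SPINT2 was in neither table. The markers of colorectal epithelium given above went both ways, 4 higher and 4 lower, and their part in these values was not tested.

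The SPINT1 promoter is shown because it was the 1 promoter with the motif among the 17 lower genes searched. The motif, in capitals, begins 6 bases upstream and ends on the start site.
SPINT1, chr15:40843798-40844048, + strand: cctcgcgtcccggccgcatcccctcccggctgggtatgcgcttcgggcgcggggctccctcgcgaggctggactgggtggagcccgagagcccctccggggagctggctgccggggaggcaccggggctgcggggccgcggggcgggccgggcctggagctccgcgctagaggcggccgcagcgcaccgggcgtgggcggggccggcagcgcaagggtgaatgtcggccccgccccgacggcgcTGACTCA

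The PRSS genes were divided, with 4 of the 8 listed higher and 4 lower, PRSS8 and PRSS22 being among the lower. PRSS56 was 4.02-fold higher at q = 0.0148 and PRSS33 2.25-fold higher at q = 6.64e-10 in the authors' deposited table. PRSS3, mesotrypsin, a trypsin that resists and cuts trypsin inhibitors, was 1.79-fold higher at q = 1.16e-18 in the authors' deposited table. PRSS3 has near-identical trypsinogen relatives, so its value is uncertain where reads were shared. PRSS53 was 1.29-fold higher at q = 0.00749 in the authors' deposited table, and overlaps ZNF646, a gene listed as lower. PRSS12, neurotrypsin, and PRSS16, a thymic protease, appear in the authors' deposited table as 1.15-fold and 1.27-fold lower, with q-values of 0.0399 and 0.0498 just inside the threshold. PRSS12 lies on chromosome 4, where 16.8% of listed genes were higher.

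Kallikreins are secreted serine proteases that act in cascades in skin and glands, and their genes form a single run on chromosome 19. Of 15 annotated KLK genes 5 were listed (33.3%, against 37.9% of all annotated protein-coding genes), 1 higher and 4 lower. KLK6 was 1.53-fold lower at q = 1.19e-23 in the authors' deposited table. KLK7, the chymotryptic enzyme of the skin, was 1.72-fold lower at q = 3.93e-20 in the authors' deposited table. KLK5, which activates KLK7, was 2.92-fold lower at q = 0.000993 in the authors' deposited table. KLK10 was 1.38-fold lower at q = 5.90e-08 in the authors' deposited table. Against these, KLK4 was 2.56-fold higher at q = 0.00223 in the authors' deposited table. KLK4 and KLK5 are neighbours, 31.9 kb apart, and the sign of the listed genes changes between them. No other listed gene lies within the run, and 58.3% of the listed genes on chromosome 19 were higher.

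Serpins trap serine proteases by a conformational change. Of 34 annotated serpin genes 14 were listed (41.2%, against 37.9% of all annotated protein-coding genes), 9 higher and 5 lower. The clade B serpins, which mostly stay inside the cell, were 5 higher and 0 lower among 13 annotated (38.5% listed). SERPINB5, maspin, was 1.52-fold higher at q = 2.30e-15 in the authors' deposited table. SERPINB8, which inhibits furin in test systems, was 2.08-fold higher at q = 2.25e-17 in the authors' deposited table. SERPINB7 was 19.5-fold higher, the largest change of the 58 genes, but with q = 0.0329 in the authors' deposited table. Only 4.65% of listed genes with an absolute log2 change of 1 or more had a larger q-value. SERPINB6 was 1.25-fold higher at q = 1.05e-08 in the authors' deposited table. SERPINB9, the granzyme B inhibitor, was 1.23-fold higher at q = 2.59e-06 in the authors' deposited table. SERPINB5, SERPINB7 and SERPINB8 lie in 1 run of 10 serpin genes on chromosome 18 that spans 543 kb, and SERPINB6 and SERPINB9 in a run of 3 on chromosome 6. The run on chromosome 18 begins 8.76 Mb from the start of RAB27B, on the same chromosome, where 50.5% of listed genes were higher.

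The promoters of the 3 higher serpins on chromosome 18 are shown because each holds the motif, in capitals, and each run of 251 bases ends at the start site. The motif begins 146 bases upstream for SERPINB5, 206 and 45 bases upstream for the SERPINB7 start shown, and 185 and 28 bases upstream for SERPINB8. SERPINB7 has other annotated starts.
SERPINB5, chr18:63476708-63476958, + strand: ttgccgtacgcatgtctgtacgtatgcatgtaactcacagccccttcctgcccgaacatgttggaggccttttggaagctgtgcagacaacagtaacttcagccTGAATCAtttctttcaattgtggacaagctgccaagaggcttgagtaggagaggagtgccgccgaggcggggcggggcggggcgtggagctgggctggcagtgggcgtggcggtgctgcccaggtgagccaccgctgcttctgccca
SERPINB7, chr18:63777531-63777781, + strand: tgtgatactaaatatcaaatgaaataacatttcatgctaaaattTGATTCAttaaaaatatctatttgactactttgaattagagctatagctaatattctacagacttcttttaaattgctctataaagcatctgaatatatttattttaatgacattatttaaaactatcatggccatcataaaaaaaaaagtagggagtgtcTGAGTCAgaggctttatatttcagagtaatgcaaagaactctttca
SERPINB8, chr18:63969831-63970081, + strand: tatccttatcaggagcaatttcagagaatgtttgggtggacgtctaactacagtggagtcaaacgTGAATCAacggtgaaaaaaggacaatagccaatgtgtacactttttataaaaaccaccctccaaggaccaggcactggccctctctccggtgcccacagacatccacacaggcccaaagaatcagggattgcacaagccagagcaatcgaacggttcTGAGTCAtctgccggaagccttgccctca

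Serpins of the other clades went both ways, 4 higher and 5 lower. Those of clade A, liver-type inhibitors of plasma proteases, were lower where listed. SERPINA1, alpha-1-antitrypsin, was 1.59-fold lower at q = 4.37e-07 in the authors' deposited table. SERPINA3, alpha-1-antichymotrypsin, was 2.61-fold lower at q = 0.00882 in the authors' deposited table. SERPINA5, described above, was the third, and these 3 lie in a run of 9 serpin genes on chromosome 14, where 54.2% of listed genes were higher. SERPINF1, the antiangiogenic factor PEDF, was 1.71-fold higher at q = 0.00456 in the authors' deposited table. Its neighbour SERPINF2, 6.8 kb away, had the opposite sign. SERPINH1, the collagen chaperone HSP47, was 1.09-fold lower at q = 0.00505 in the authors' deposited table, the smallest change of the 58. SLPI, the secretory leukocyte protease inhibitor of mucosal fluids (gene ID 6590; chromosome 20, 45252239 to 45254564), was 8.32-fold higher at q = 5.81e-18 in the authors' deposited table.

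**Figure D4:**
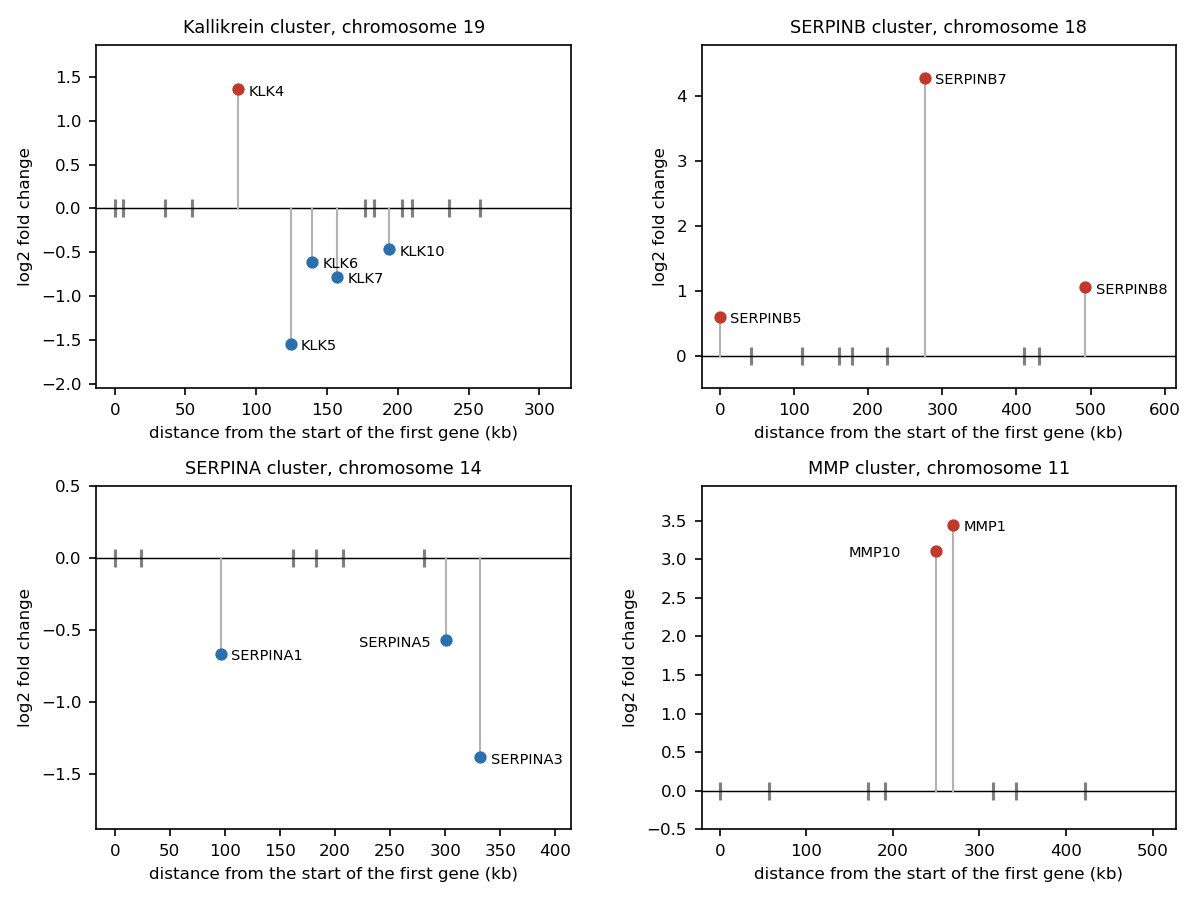
Log2 fold change of listed genes (points, red higher and blue lower) in 4 gene clusters, by distance in kb from the start of the first family gene of the cluster; grey ticks on the zero line mark family genes in neither table. The listed serpins of chromosomes 18 and 14 keep 1 sign in each cluster, and the kallikreins change sign between KLK4 and KLK5.

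Gene runs differed in whether their listed genes shared a sign. The same families gave 9 runs in which at least 2 genes were listed and neighbours lay within 1 Mb. In 5 of them all listed genes had 1 sign: MMP10 with MMP1, TMPRSS13 with TMPRSS4, the serpins of chromosome 14, those of chromosome 18 and those of chromosome 6. In the other 4, the kallikreins, SERPINF2 with SERPINF1, PRSS33 with PRSS22, and PRSS53 with PRSS8, the signs were mixed. In the MMP run on chromosome 11 only 2 of 9 genes were listed, and they are neighbours 9.3 kb apart. Most runs held only 2 listed genes, for which a shared sign is common, so the count of 5 in 9 is a description only.

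The genes around these proteases, their cofactors, substrates and further regulators, were described from a list of 100 genes. Of these 42 were listed, 26 higher and 16 lower, a share of 42% against 37.9% of annotated protein-coding genes. Without chromosomes 4, 7, 13 and 15, set apart as skewed in direction, they were 23 higher and 9 lower. On chromosomes 4, 7 and 15 only 16.8%, 33% and 19.8% of listed genes were higher, so leaving them out takes away mainly lower genes. The share on chromosome 13 is not given here. For plasminogen and coagulation 8 of 24 were listed, 5 higher and 3 lower. S100A10, a cell-surface plasminogen receptor, was 2.65-fold higher at q = 3.34e-269 in the authors' deposited table. Its partner ANXA2 was 1.20-fold higher at q = 3.43e-15 in the authors' deposited table. ENO1, which also binds plasminogen at the cell surface, was 1.49-fold higher at q = 6.89e-91, and PROCR, the protein C receptor, 1.83-fold higher at q = 1.54e-44 in the authors' deposited table. The 3 lower genes were A2M, a broad protease inhibitor, TFPI, the tissue factor pathway inhibitor, and F2R, a thrombin receptor. They were 20.7-fold lower at q = 1.39e-08, 1.68-fold lower at q = 1.19e-13 and 1.30-fold lower at q = 2.14e-09 in the authors' deposited table. The remaining listed gene, VTN, was 19.8-fold higher at q = 0.0287 in the authors' deposited table. The 3 lower genes and VTN were added after their values were seen.

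For sheddase regulators and ligands of the EGF receptor 14 of 21 were listed, 7 higher and 7 lower. TGFA was 2.13-fold higher at q = 3.12e-73 and HBEGF 2.36-fold higher at q = 1.87e-20 in the authors' deposited table. EREG was 1.52-fold lower at q = 2.06e-42 and the receptor gene EGFR 1.43-fold lower at q = 1.87e-20 in the authors' deposited table. Ligands shed by ADAM proteases therefore differed in sign. EREG lies on chromosome 4 and EGFR on chromosome 7, where 16.8% and 33.0% of listed genes were higher. For activation of hepatocyte growth factor, a task of matriptase and hepsin, 3 of 5 were listed, 1 higher and 2 lower. MET, its receptor, was 1.10-fold lower at q = 0.00319 in the authors' deposited table. MET, like EGFR, lies on chromosome 7. MST1, a related growth factor, was 1.54-fold lower at q = 0.00318, and its receptor gene MST1R 1.15-fold higher at q = 0.00995 in the authors' deposited table. The genes of hepatocyte growth factor itself (HGF) and of its activator (HGFAC) were in neither table.

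For proprotein convertases and other matrix proteases 6 of 27 were listed, 5 higher and 1 lower. ECE1, endothelin-converting enzyme, was 1.35-fold higher at q = 2.95e-21 in the authors' deposited table. The convertase gene PCSK5 was 1.76-fold higher at q = 1.99e-08, whereas PCSK6 was 1.61-fold lower at q = 1.28e-06 in the authors' deposited table. PCSK6 lies on chromosome 15, where 19.8% of listed genes were higher. For cathepsins and cystatins 11 of 23 were listed, 8 higher and 3 lower. The secreted inhibitor CST3, cystatin C, was 1.60-fold higher at q = 8.97e-56 in the authors' deposited table. Among the enzymes, CTSH, an aminopeptidase, was 2.75-fold lower at q = 3.93e-60 in the authors' deposited table. CTSH also lies on chromosome 15. CTSD was 1.56-fold higher at q = 9.00e-50 in the authors' deposited table. CTSL, cathepsin L, was 1.65-fold higher at q = 2.33e-23 in the authors' deposited table.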

How the data were processed

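RNA of 6 HCT116 cultures, 3 per genotype by their titles, was sequenced on the DNBSEQ platform, per the labels' protocols. The submitters' processing notes name HISAT, Bowtie2 and the build GRCh38, with the counting, scaling and test not given in the sources used here. Deposited log2 fold changes and q-values of the authors' comparison, per the file headers, were used as they stand. For higher genes the deposited linear ratio matched the antilog of the log2 column (largest relative difference 4.53e-10), and folds of lower genes were computed from the log2 value. No values per sample were analysed here, so depth is unknown, q-values favour abundant and long transcripts, and no test was added.

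Genes were selected by symbol. Gene IDs matched a RefSeq gene table of GRCh38.p14 for 7656 of 7681 genes, which gave positions and family sizes. Runs of genes were formed with starts at most 1 Mb apart. The members and lists were chosen with earlier results of these data known. Values were printed for genes with an absolute log2 change of at least 1, up to 4 others per family by q-value, and a fixed set of urokinase, matriptase and TIMP genes; the remaining members were then added, so all but 1 are given; that gene is counted but not reported here. Of related genes and markers, up to 4 per list by q-value are given. All listed epithelial markers and the other listed plasminogen and coagulation genes were added after their values were seen. The protein motif planned was not searched. The symbol rule was run on simulated tables made from symbols it already took, others it left out and a few look-alike names. That run checks the counting only, not the choice of genes or their families and roles. Alternatives were a stricter q-value (below 0.01), an absolute log2 minimum of 1, RefSeq symbols, leaving out chromosomes 4, 7, 13 and 15, leaving out intracellular serpins and ADAMTS-like genes, and, added after seeing the data, leaving out MMP24OS or overlapping genes. Python 3.11.15, pandas 2.3.3 and matplotlib 3.10.9 were used.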

Additional observations from a re-analysis of the deposited data

How the results depend on the processing

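Counts were recomputed under 5 alternatives and 2 more chosen after seeing the data. At an absolute log2 change of at least 1, 15 protease and inhibitor genes were higher and 8 lower, with 8 proteases higher and 6 lower, 5 inhibitors higher and 2 lower, and 5 related genes higher and 3 lower. Without clade B serpins, SERPINH1 and ADAMTS-like genes, 7 inhibitors were higher. Without chromosomes 4, 7, 13 and 15, set apart as skewed in direction, 9 related genes were lower. The other counts stayed within 1.5 times their values. At a q-value below 0.01, 54 of the 58 genes kept their call and 4 lost it, namely SERPINB7, PRSS56, PRSS12 and PRSS16. No paired analysis was possible because no values per sample were analysed here, and leaving out a replicate could not be done for the same reason. Without read counts, low abundance cannot be told from high variability behind a weak q-value.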
